A study of Drosophila melanogaster with 36 samples.

Results

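The epsilon glutathione S-transferase (GST) genes GstE1, GstE3, GstE4, GstE5, GstE8, GstE9 and GstE10 of Drosophila melanogaster were followed through 9 chemical exposures. These 7 genes were chosen by symbol alone, as the measured epsilon GSTs numbered 1 to 10, out of 159 genes with a single symbol on the array. Each was represented by 4 spots. In the fly reference (Release 6 plus ISO1 MT) all 7 lie on chromosome arm 2R in a run of 12 neighbouring genes, in the order GstE10, GstE1, GstE2, GstE3, the pseudogenes CR43687 and CR43688, GstE4, GstE5, GstE6, GstE7, GstE8 and GstE9. GstE2, GstE6 and GstE7 were not analysed here. The models of GstE10 and GstE1 overlap, and probe sequences were not used, so signal shared between these related neighbours cannot be told apart from signal of their own.

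GSTs are dimeric enzymes that couple the thiol of glutathione to electrophilic compounds, which makes the products more soluble and easier to excrete. The epsilon class is found in insects and, with the delta class, holds most of the enzymes tied to insecticide metabolism. In the mosquito Anopheles gambiae an epsilon GST dehydrochlorinates DDT. In Drosophila GstE1 acts in vitro on hydroxynonenal, a product of lipid peroxidation.

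All animals were of the y cn bw sp strain and were exposed for 4 h. The larval groups, whole feeding 3rd instar larvae 4.5 days after laying, received in their food diazinon at 0.013% (an organophosphate), dicyclanil at 0.067% (an insect growth regulator), lufenuron at 20 ppm (an inhibitor of chitin synthesis), nitenpyram at 6 ppm (a neonicotinoid), spinosad at 6e-05% (a spinosyn), caffeine at 1.5 mg/ml or phenobarbital at 10 mM (a barbiturate that induces many detoxification enzymes). The adult groups, whole males 4 days after emergence, were placed in vials coated with DDT (10 µg) or with phenobarbital (10 µl of a 1 M solution), each spread in 150 µl acetone that was left to evaporate. For DDT array 1 the label of the exposed males gives 5 days. Each exposed pool was set against a pool of unexposed animals of the same stage, and each pool combined 8 samples of 50 individuals, 400 in all. Whether exposures shared a control pool was not given in the sources used here. The exposed pool and its control were hybridised together to 4 two-colour arrays, with the exposed pool in Cy5 on arrays 1 and 3 and in Cy3 on arrays 2 and 4. The arrays of an exposure are thus technical repeats, and their spread measures array error, not the variation between animals. RNA of whole animals cannot tell fewer cells of a type from less RNA per cell, and the array offered no marker list with which to check the labelled stage.

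Between 1504 and 1732 of 1936 spots gave a ratio on each array. In the adult groups, the array numbered 4 under DDT and that numbered 4 under phenobarbital matched in 1936 of 1936 spots, with the same deposited value in 1688 and no value on either array in 248. Both were left out, leaving 34 of 36 arrays, with n = 4 in each larval and n = 3 in each adult group. Values below are log2 ratios of exposed over control, relative to the median named gene of the same array. The direction (Cy5 over Cy3) is the usual one of the limma software and is likely rather than stated. If it were the opposite, every higher and lower below would be exchanged. The correlation of unnamed spots between the dye orientations ran from r = -0.91 to -0.54 in the 9 exposures as deposited, so ratios were taken as not yet turned to exposed over control in any of them. Over the named genes other than the members the same correlation ran from -0.68 in phenobarbital larvae to 0.91 in diazinon larvae and was below 0 with phenobarbital alone, so the named genes by themselves do not settle this for the other 7 exposures. If the ratios of an exposure had already been turned, its values would change, and GstE3 would average 1.43 in place of -0.02 in nitenpyram larvae and 0.37 in place of -0.03 in lufenuron larvae. Fitted ratios are given ± SE, and a gene was called where its limma adjusted p, over 159 genes, was under 0.05 and its ratio at least 1.5-fold.

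GstE3 reached the highest ratios of the members, and it rose with phenobarbital at both stages and with caffeine. On the arrays of phenobarbital adult males it read 2.88 and 2.95 with the exposed pool in Cy5 and 1.91 in Cy3. On those of phenobarbital larvae it read 3.65 and 3.82 in Cy5, and 1.42 and 1.38 in Cy3. In caffeine larvae it read 2.39 and 2.10 in Cy5, and 0.78 and 0.73 in Cy3. Every one of these arrays lay above 0, and the Cy5 arrays lay above the Cy3 arrays in each exposure.

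The fitted GstE3 ratio was 4.99-fold in phenobarbital adult males (2.32 ± 0.25, adjusted p = 9.43e-09), 5.93-fold in phenobarbital larvae (2.57 ± 0.21, adjusted p = 1.72e-11) and 2.83-fold in caffeine larvae (1.50 ± 0.21, adjusted p = 2.78e-06). These 3 calls held under each alternative processing and with each array left out. In DDT adult males GstE3 stood at 0.79 ± 0.25 (adjusted p = 0.0504) and in dicyclanil larvae at 0.74 ± 0.21 (adjusted p = 0.0701), neither called. With arrays centred on all spots both were called, at 0.59 and 0.72, and with a dye term per exposure, at 0.72 and 0.74. The DDT ratio was also called with at least 3 spots (0.77). The dicyclanil ratio was also called on ribosomal protein and Gapdh genes (0.74), scaled to one spread (1.42), with the median of spots (0.72) and without array 1 (0.90). Neither was called without centring (0.79 and 0.57) or without a dye term. On ribosomal protein and Gapdh genes (0.57) and scaled (0.44) the DDT ratio was not called. In the other 4 exposures it lay between -0.03 with lufenuron and 0.27 with spinosad, within 1.5 SE of 0. By fitted value the order of GstE3 ratios was phenobarbital larvae, phenobarbital adult males, caffeine, DDT, dicyclanil, spinosad, diazinon, nitenpyram and lufenuron. DDT and dicyclanil, and nitenpyram and lufenuron, lay closer together than their SE, so their order is not settled. The adult and larval phenobarbital ratios did not differ beyond their error (-0.25 ± 0.33, adjusted p = 0.669), but this difference changed with the scaling, to 1.45 with arrays scaled to one spread and to -0.74 with centring on 4 ribosomal protein and Gapdh genes, both of which were called.

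**Figure D1:**
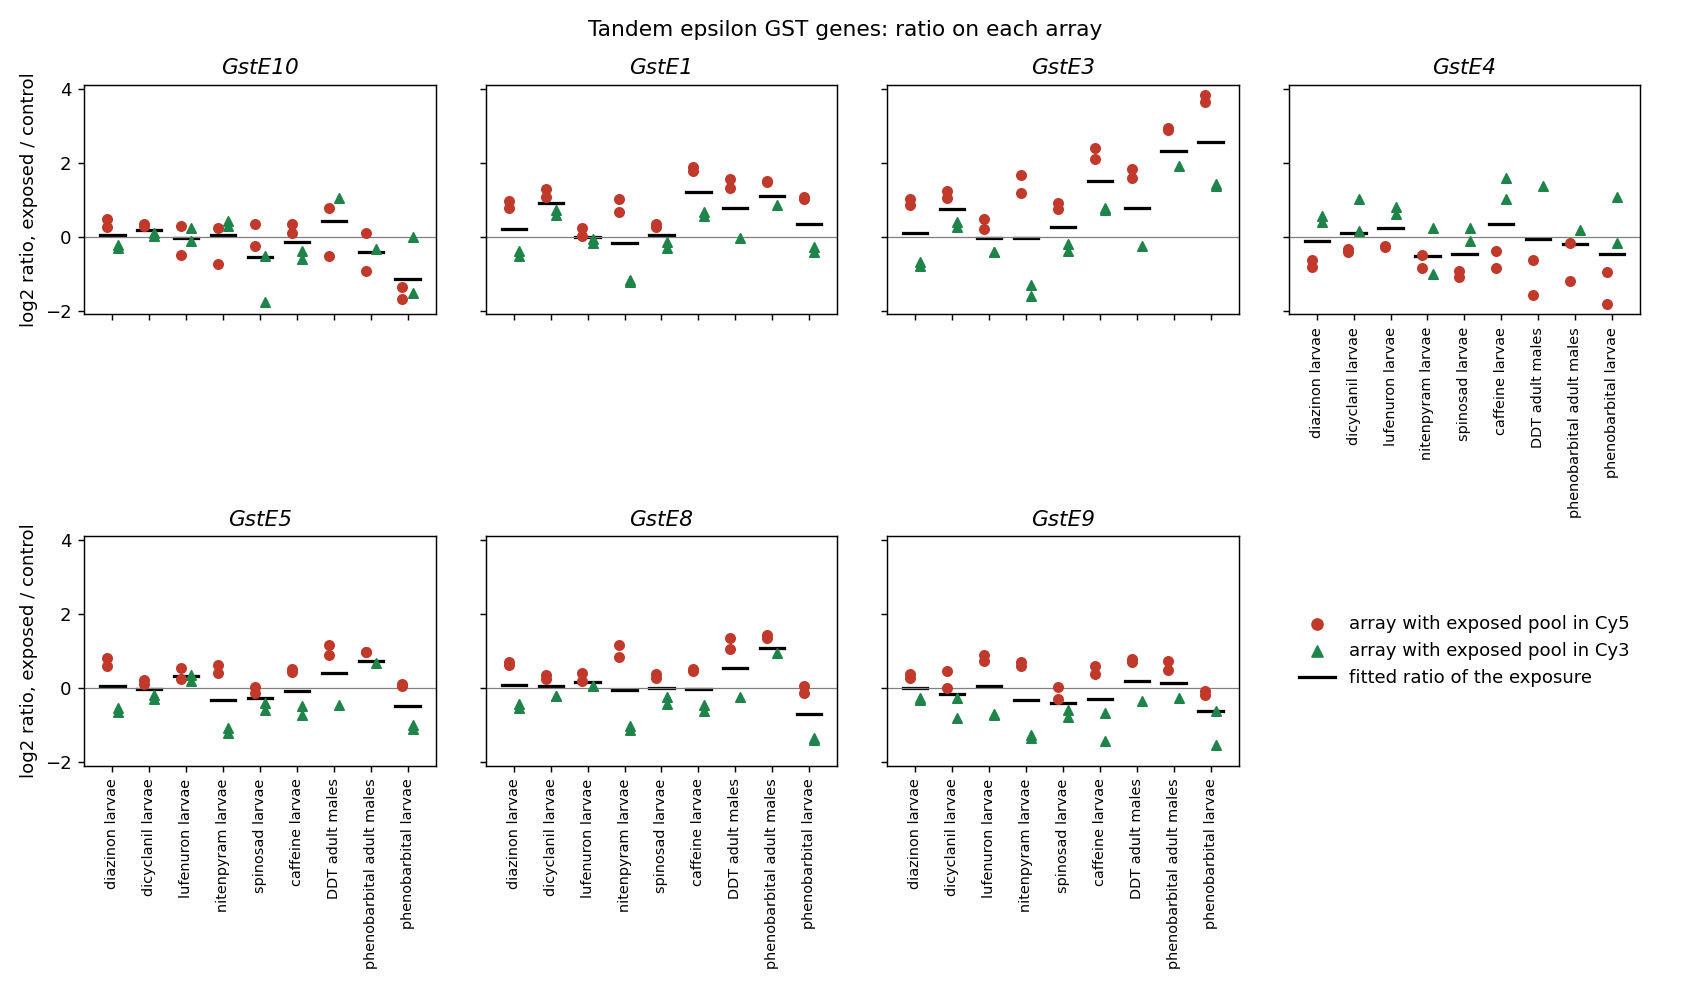
Each panel shows 1 gene, with the log2 ratio of exposed over control on the vertical axis and the 9 exposures along the horizontal axis. Circles are arrays with the exposed pool in Cy5, triangles arrays with it in Cy3, and bars the fitted ratio. GstE3 reaches 3.82 in phenobarbital larvae, and in the panels of GstE1, GstE3, GstE8 and GstE9 the circles lie above the triangles in every exposure.

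GstE1 rose with caffeine and with phenobarbital in adult males, and it was the 1 member called with a larval insecticide in the default processing. In caffeine larvae it read 1.88 and 1.78 in Cy5, and 0.67 and 0.57 in Cy3, a 2.34-fold ratio (1.22 ± 0.18, adjusted p = 3.56e-06). In phenobarbital adult males it read 1.47 and 1.52 in Cy5 and 0.87 in Cy3, a 2.16-fold ratio (1.11 ± 0.21, adjusted p = 0.000136). These calls held under each alternative and with each array left out. In phenobarbital larvae the arrays of GstE1 fell on both sides of 0, at 1.02 and 1.08 in Cy5 and at -0.28 and -0.41 in Cy3, and the fitted 0.35 ± 0.18 was not called (adjusted p = 0.109). Without centring it was called at 1.13, and with centring on ribosomal protein and Gapdh genes at 1.07.

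With dicyclanil GstE1 read 1.07 and 1.28 in Cy5, and 0.71 and 0.58 in Cy3, so that all arrays lay above 0. The ratio was 1.88-fold (0.91 ± 0.18, adjusted p = 0.00379), the highest of 159 genes in that exposure. The call was lost without array 2 (adjusted p = 0.114), without array 4 (adjusted p = 0.0744) and without centring (0.74). In DDT adult males GstE1 read 1.32 and 1.55 in Cy5 and -0.03 in Cy3, and it was called at 0.77 ± 0.21 (1.71-fold, adjusted p = 0.0274). That call was lost without array 1 (adjusted p = 0.198), without array 3 (adjusted p = 0.26), with the array number as a block (adjusted p = 0.0536) and under each of 4 other scalings, where the ratio was 0.51 to 0.77. In diazinon, lufenuron, spinosad and nitenpyram larvae GstE1 lay between -0.17 and 0.21.

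GstE5 and GstE8, which stand on either side of GstE6 and GstE7, rose in phenobarbital adult males. GstE8 read 1.37 and 1.43 in Cy5 and 0.95 in Cy3 there, a 2.12-fold ratio (1.08 ± 0.20, adjusted p = 0.000136) that held under each alternative and without each array. GstE5 read 0.99 and 0.97 in Cy5 and 0.68 in Cy3, a 1.66-fold ratio (0.73 ± 0.20, adjusted p = 0.00685). Its call was lost without array 2 (0.51, adjusted p = 0.243), with both identical arrays kept (0.47, adjusted p = 0.129) and without a dye term (0.88, adjusted p = 0.0991).

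In phenobarbital larvae the same genes lay on the other side of the median gene. GstE8 read -0.13 and 0.05 in Cy5, and -1.33 and -1.39 in Cy3, and was called lower at -0.70 ± 0.18 (adjusted p = 0.0014). GstE5 read 0.07 and 0.12 in Cy5, and -0.98 and -1.10 in Cy3, and at -0.47 ± 0.17 (adjusted p = 0.024) it was under the 1.5-fold limit. The larval value of GstE8 was -0.47 with centring on all spots and -0.56 with arrays scaled to one spread, both under the 1.5-fold limit, and 0.08 without centring and 0.02 with centring on ribosomal protein and Gapdh genes. With caffeine and the 5 larval insecticides GstE8 lay between -0.04 and 0.18 and was not called, and GstE5 lay between -0.32 and 0.34.

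GstE4, GstE9 and GstE10 were called in no exposure except phenobarbital larvae, where GstE9 and GstE10 were lower. GstE9 read -0.06 and -0.19 in Cy5, and -1.53 and -0.62 in Cy3 (-0.60 ± 0.18, adjusted p = 0.00687). GstE10 read -1.69 and -1.37 in Cy5, and 0.00 and -1.52 in Cy3 (-1.15 ± 0.28, adjusted p = 0.00122). All arrays of GstE9, and 3 of 4 of GstE10, lay below 0. Under each of 4 other scalings both calls were lost, with GstE9 between -0.48 and 0.18 and GstE10 between -0.92 and -0.37, and that of GstE9 was lost without array 2 or array 3 as well. GstE4 ranged from -0.53 ± 0.26 with nitenpyram to 0.35 ± 0.26 with caffeine. With the median of spots in place of their mean, GstE4 was called lower in phenobarbital larvae (-0.71) and GstE10 higher in DDT adult males (0.88). GstE4 was also called lower in phenobarbital larvae without array 4 (-0.78, adjusted p = 0.0263), and higher in caffeine larvae with centring on ribosomal protein and Gapdh genes (0.81, adjusted p = 0.0369).

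Counted by exposure, 4 of the 7 members were higher and 0 lower in phenobarbital adult males, where 18.2% of the 159 genes were called in either direction. In phenobarbital larvae 1 was higher and 3 lower, against 43.4% of all genes called. In caffeine larvae 2 were higher and 0 lower, against 17.6%. In DDT adult males 1 was higher, against 6.29%, and in dicyclanil larvae 1, against 1.26%. With diazinon (0% of all genes called), lufenuron (0%), spinosad (0%) and nitenpyram (0.629%) 0 members were called. At an unadjusted p under 0.05 limma gave 2 genes with diazinon, 1 with lufenuron, 4 with spinosad, GstE9 among them, and 9 with nitenpyram.

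The median ratio of the members was 0.73 in phenobarbital adult males against -0.07 over all genes, and 0.42 in DDT adult males against 0.03. It was -0.47 in phenobarbital larvae against -0.15 over all genes, and -0.03 in caffeine larvae against -0.03. With the larval insecticides it lay between -0.27 with spinosad and 0.11 with dicyclanil. Other scalings moved the larval phenobarbital median of all genes from -0.15 to as much as 0.63, and the split of members called there became 2 higher and 0 lower without centring, when all genes split into 54 higher and 2 lower against 36 and 33 with centring.

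**Figure D2:**
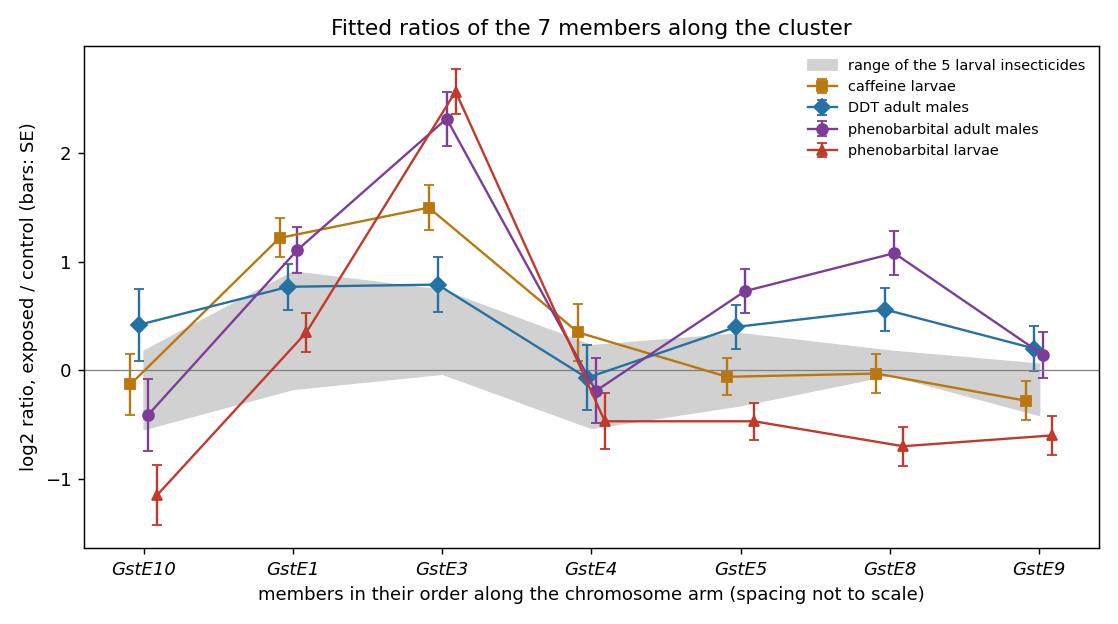
The 7 genes are placed in their chromosomal order, with the fitted log2 ratio on the vertical axis and SE as bars. The grey band spans the 5 larval insecticides, and lines join the values of caffeine, DDT and phenobarbital. GstE3 is the peak with phenobarbital, at 2.32 in adult males and 2.57 in larvae. The lines of the phenobarbital stages lie farthest apart at GstE8, by 1.78, and by 0.74 to 1.20 at GstE10, GstE1, GstE5 and GstE9.

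Differences between members on the same array do not depend on how that array is centred. They were looked at after the values were known and are given as description. GstE3 exceeded GstE8 by 0.96 to 1.52 in phenobarbital adult males, by 2.75 to 3.78 in phenobarbital larvae and by 1.24 to 1.87 in caffeine larvae. With dicyclanil the difference was 0.49 to 0.88, and in the other 5 exposures it ran from -0.47 to 0.52. GstE3 exceeded GstE1 by 1.04 to 1.43 in phenobarbital adult males, by 1.70 to 2.74 in phenobarbital larvae and by 0.11 to 0.51 in caffeine larvae. GstE5 and GstE8 stayed close on every array used, with GstE5 minus GstE8 between -0.53 and 0.35.

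The stages were compared directly for phenobarbital, the compound given to both, although dose and route differed. GstE8 was 3.44-fold higher relative to control in adult males than in larvae (1.78 ± 0.27, adjusted p = 8.7e-06), the second largest positive difference of 159 genes, and this held under each alternative. GstE5 was 2.30-fold higher (1.20 ± 0.26, adjusted p = 0.00086), and it was not called without centring (1.08, adjusted p = 0.296). GstE1 (0.76 ± 0.28, adjusted p = 0.0529), GstE9 (0.74 ± 0.28, adjusted p = 0.0628) and GstE10 (0.74 ± 0.43, adjusted p = 0.306) were not called. GstE4 stood at 0.28 ± 0.40. Thus 2 of 7 members were called, both higher in adult males, against 17.6% of all genes in either direction, of which 10 were higher and 18 lower. The count rose to 4 with arrays centred on all spots, at least 3 spots or a dye term per exposure, where GstE1 (0.76 to 0.88) and GstE9 (0.73 to 0.85) were called higher too. With the median of spots it rose to 5, which added GstE10 (0.97). Calls over all 159 genes rose in these settings too, from 28 to 34, 30, 52 and 35 in turn. With centring on ribosomal protein and Gapdh genes GstE3 was called lower in adult males (-0.74), when 36 of all genes were called. With arrays scaled to one spread GstE3 (1.45) and GstE1 (1.42) were called higher, when 22 of all genes were called. GstE9 was also called higher without larval array 4 (0.92) and with both identical arrays kept (1.04).

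**Figure D3:**
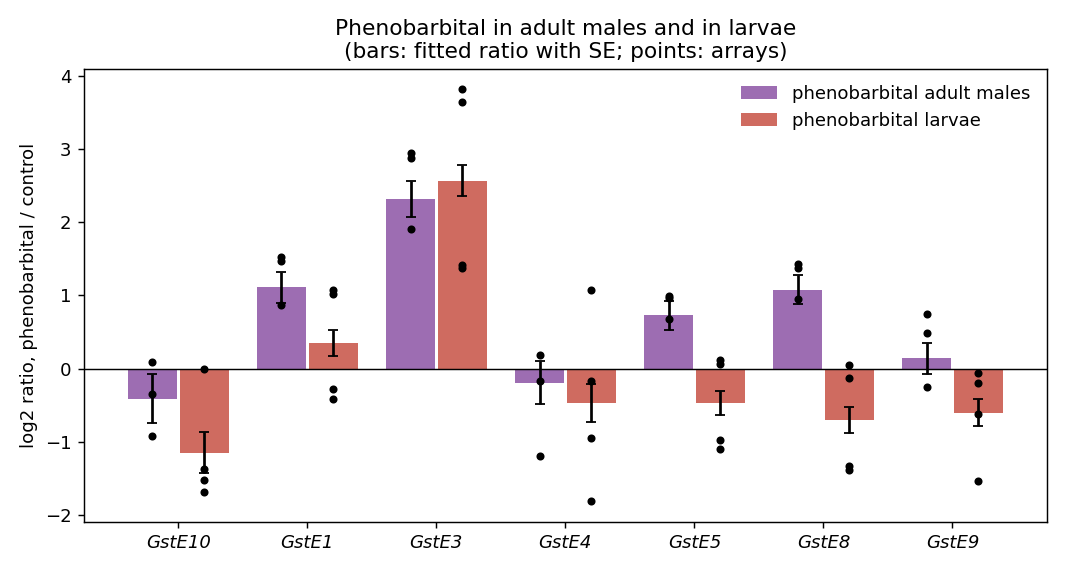
Bars give the fitted log2 ratio of phenobarbital over control with its SE, adult males left and larvae right of each pair, and points are arrays. For GstE8 the 3 adult arrays lie between 0.95 and 1.43, and the 4 larval arrays between -1.39 and 0.05.

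Set against phenobarbital at the same stage, caffeine gave a lower GstE3 ratio in larvae (-1.07 ± 0.30, adjusted p = 0.00899), a higher GstE1 ratio (0.87 ± 0.25, adjusted p = 0.0107) and a higher GstE8 ratio (0.67 ± 0.25, adjusted p = 0.0489). Of all genes 23.3% differed. The GstE8 call was lost in 7 of the 8 fits that left out an array, and the calls of GstE3 and GstE1 in none. Without centring 0 of these 3 were called, and without a dye term 0 as well. With arrays scaled to one spread GstE3 (-0.53, adjusted p = 0.0906) and GstE8 (0.56, under the 1.5-fold limit) were not called. In adult males DDT gave a lower GstE3 ratio than phenobarbital (-1.53 ± 0.35, adjusted p = 0.00236), and 8.18% of all genes differed. With both identical arrays kept the GstE3 difference was -1.15 (adjusted p = 0.0714), and without a dye term it was -1.53 (adjusted p = 0.399), neither called. GstE1 (-0.34 ± 0.29), GstE5 (-0.34 ± 0.28) and GstE8 (-0.53 ± 0.29) were not called between DDT and phenobarbital. With arrays centred on all spots these 3 were called lower, at -0.88, -0.87 and -1.06. In that setting 37 of all genes were called, 36 of them lower, against 13 called and 12 lower in the default processing. The median difference over all genes moved from 0.03 to -0.51, so these 3 calls came with a shift of all genes.

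With pool pairs instead of arrays as replicates, the 5 larval insecticides were set against caffeine and phenobarbital in larvae. Each pair was a different compound, so the error is spread between compounds, not between repeats of a condition. A control pool shared between exposures, which was not excluded, would tie the pairs. GstE3 averaged 0.21 over the insecticides (SD 0.32, range -0.03 to 0.74) and 2.03 over caffeine and phenobarbital, a difference of -1.82 ± 0.31 (adjusted p = 0.00493). The 2 single values were 1.50 with caffeine and 2.57 with phenobarbital. GstE1 averaged 0.20 and 0.79 and did not pass (-0.59 ± 0.33, adjusted p = 0.195), with dicyclanil at 0.91 above phenobarbital at 0.35. The other 5 members differed by -0.10 to 0.59 and were not called, and 28.3% of all genes were. With caffeine left out the difference was 0.76 for GstE8 and 1.09 for GstE10, and with phenobarbital left out it was -1.02 for GstE1. In these fits the caffeine and phenobarbital side was a lone pool pair, assumed to vary like the insecticide pairs, so only sizes are given. With arrays scaled to one spread GstE3 was not called (-1.28, adjusted p = 0.0524).

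Over both stages, the phenobarbital pool pairs were set against the 7 pairs of other compounds with stage as a covariate. The same limits hold for this comparison. GstE3 averaged 2.49 with phenobarbital and 0.47 with the others, whose highest value was 1.50, and differed by 1.98 ± 0.40 (adjusted p = 0.00879). GstE10 averaged -0.76 and 0.03 and was lower with phenobarbital (-1.04 ± 0.22, adjusted p = 0.00879), a call kept in 1 of 4 other scalings. Of all genes 26.4% were called. Without phenobarbital larvae the difference was 1.69 for GstE3 and -0.96 for GstE10. Phenobarbital then rested on the adult pair alone, so neither size can be tested. The corresponding difference of adult over larval pool pairs was 0.97 ± 0.27 for GstE8 (adjusted p = 0.279), the largest positive difference of 159 genes, and 0.69 ± 0.26 for GstE5 (adjusted p = 0.279). Neither was called. The share of all genes called by limma was 0%, and 20 had an unadjusted p under 0.05. Without DDT adult males the difference was 1.87 for GstE8 and 1.30 for GstE5. The adult side of that fit rested on phenobarbital alone, so only sizes are given.

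The other GST genes were counted under the same call rule. In phenobarbital adult males the delta class came near the members, of which 4 of 7 were higher with a median of 0.73. In phenobarbital adult males 6 of 11 delta GSTs were higher, with a median of 0.63, led by GstD2 (3.68 ± 0.23), GstD7 (1.62 ± 0.48) and GstD5 (1.29 ± 0.26). In phenobarbital larvae 7 of 11 were higher and 1 lower, with a median of 1.03, led by GstD2 (4.66 ± 0.19), GstD7 (2.64 ± 0.42) and GstD5 (2.62 ± 0.22). GstE11, GstE12, GstE13 and GstE14, epsilon GSTs outside the run, had 0 of 4 called in phenobarbital adult males (median -0.23). In phenobarbital larvae GstE12 (-0.88 ± 0.23) and GstE13 (-0.89 ± 0.16) were lower, and 0 of 4 were higher. Of 12 further GSTs 0 were called in phenobarbital adult males, and in phenobarbital larvae 2 were higher, GstT4 (1.59 ± 0.21) and GstO3 (1.12 ± 0.26), and 2 lower, led by GstS1 (-1.40 ± 0.23). In caffeine larvae GstD2 (0.86 ± 0.19) and GstO1 (0.86 ± 0.14), an omega GST, were higher and GstE13 (-0.70 ± 0.16) was lower. With DDT 4 of 11 delta GSTs were higher, led by GstD2 (1.19 ± 0.23), GstD5 (0.95 ± 0.26) and GstD8 (0.89 ± 0.27), and so was GstT4 (0.84 ± 0.24). With dicyclanil 1 delta GST was higher, GstD3 (0.80 ± 0.18).

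**Figure D4:**
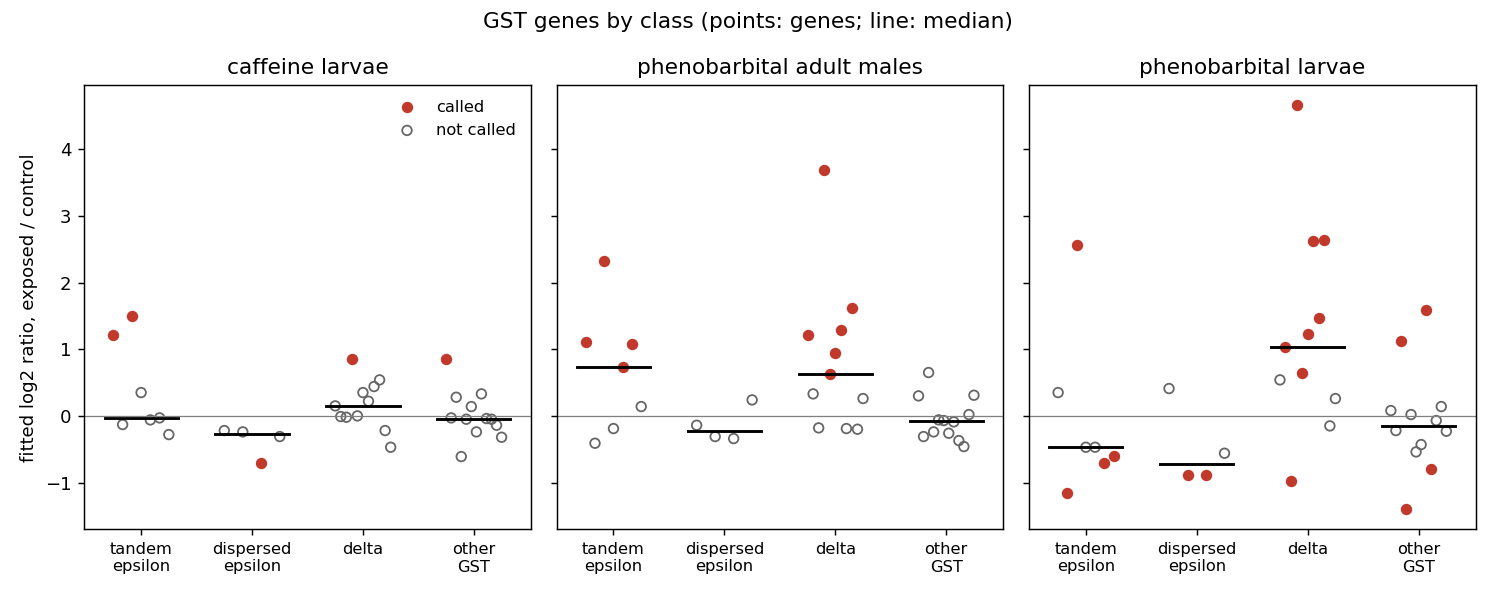
Points are GST genes by class, filled where called, with the fitted log2 ratio on the vertical axis and the class median as a line, in caffeine larvae, phenobarbital adult males and phenobarbital larvae. The tandem epsilon median is 0.73 in phenobarbital adult males and -0.47 in phenobarbital larvae, and that of the delta class is 0.63 and 1.03.

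Over the 9 exposures the members followed different profiles. The following correlations are descriptions over n = 9 exposure means, which share the array design and its centring. GstE5 and GstE8 correlated at r = 0.92, GstE5 and GstE9 at 0.90, and GstE8 and GstE9 at 0.84. GstE1 and GstE3 correlated at 0.64, and at 0.95 over the 7 exposures without phenobarbital. GstE3 and GstE10 stood at -0.60, and at 0.11 without phenobarbital, and GstE3 and GstE8 stood at 0.06. The genes most like GstE3 among 157 were the cytochrome P450 genes Cyp12c1 (r = 0.971), Cyp4e2 (0.969) and Cyp6a2 (0.957). For GstE1 they were GstO1 (0.887), Cyp6a19 (0.785) and Cyp6a20 (0.671), and for GstE8, after GstE5 and GstE9, Nlg1 (0.783). GstE9 was most like Cyp304a1 (0.919), which also followed GstE8 and GstE9 for GstE5 (0.854) and first for GstE4 (0.724), where GstO2 (0.640) and Cyp4p3 (0.591) followed. GstE10 was most like RpS20 (0.903), Gdap1 (0.898) and clt (0.843).

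The precision of the members differed. The 4 spots of GstE3 had a median SD of 0.04 on the log2 scale over arrays, the lowest of 159 genes, and those of GstE5, GstE8 and GstE1 had 0.09, 0.10 and 0.11, against 0.32 over all spots of named genes. GstE10 had 0.32, GstE9 0.58 and GstE4 0.86. GstE1, GstE3, GstE5 and GstE8 had a value in all of 136 spot readings each, while 9 were missing for GstE4, 11 for GstE9 and 12 for GstE10. Of the GstE9 values 15.2% equalled, to 3 decimals, the log2 ratio of whole numbers from 1 to 3, against 4.99% over all genes and 0% for GstE1, GstE3 and GstE5. Signal intensities were not used here, so precision rests on the count of arrays.

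The dye of the exposed pool shifted 6 of the 7 members one way in all exposures. The mean with the exposed pool in Cy5 was above that in Cy3 in 9 of 9 exposures for GstE1, GstE3, GstE5, GstE8 and GstE9, and below it in 9 of 9 for GstE4. The dye term common to all arrays was 0.78 ± 0.07 for GstE3, the tenth largest of 159 genes, -0.63 ± 0.09 for GstE4 and 0.44 to 0.56 for GstE1, GstE5, GstE8 and GstE9. For GstE10 it was 0.04 ± 0.10. In nitenpyram larvae, where GstE3 was fitted at -0.02, its arrays read 1.17 and 1.66 in Cy5, and -1.30 and -1.60 in Cy3. Arrays of one orientation repeated closely, with a pooled SD of 0.11 for GstE8, 0.12 for GstE1 and GstE5 and 0.15 for GstE3, against 0.48 for GstE4 and 0.53 for GstE10. Both orientations gave the same sign in 4 of 9 exposures for GstE3 and in 3 of 9 for GstE1, GstE5 and GstE8.

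**Figure D5:**
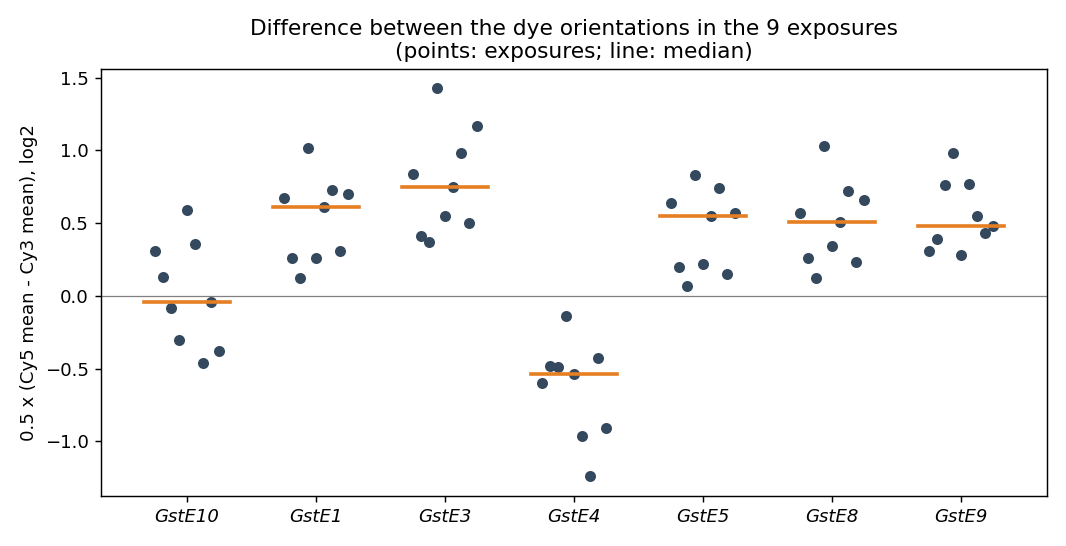
For each gene the points are the 9 exposures and the line their median. The vertical axis is 0.5 times the mean of the Cy5 arrays minus the mean of the Cy3 arrays, in log2 units, and the values run from 0.37 to 1.43 for GstE3 and from -1.24 to -0.14 for GstE4.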

How the data were processed

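Per the labels, exposed and control RNA pools were labelled with Cy5 and Cy3 and hybridised on spotted arrays for detoxification genes. The authors deposited 1 log2 ratio of the dyes per spot; limma is named in the submitters' processing notes with no version or role, and background handling and normalization are not given in the sources used here. The deposited values were not centred: array medians of named genes ran from -1.95 to 0.63. A ceiling value of 16.61 in 2301 places and 8543 empty values were treated as missing. Genes were named from the platform's annotation (656 spots with 1 symbol, 159 genes, 8 spots with several symbols, 1272 with none), and 158 genes were found in the fly reference by identifier.

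Spots were averaged per gene, the median of an array's named genes was subtracted from it, and ratios were turned to exposed over control by the labelled dyes. Over 34 arrays limma (version 3.58.1, R 4.3.3) estimated a ratio for each exposure and a common dye term, with contrasts in the same fit and Benjamini-Hochberg adjustment over 159 genes. Pool pair comparisons used limma on dye-balanced means, called at an adjusted p under 0.05 with no limit on size. The fits were tested on simulated data. In the 9 exposures the call rule recovered 29.2% of simulated 1.5-fold changes, 76.4% of 2-fold and 98.6% of 4-fold changes. A gene that was not called may thus still have changed. Tables and figures were made in matplotlib 3.10.9, numpy 2.4.6 and pandas 2.3.3 under Python 3.11.15. Alternatives changed the centring, scaling, averaging of spots, spot minimum, dye term, use of the identical arrays and replicate block, and left out single arrays or pool pairs. Keeping the identical array in DDT adult males alone was added after seeing the data.

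The members, the gene lists and the tests were chosen with earlier results of these data known. All members are named. Each member's 3 most similar genes by Pearson r are named too, as are called members of related GST lists, at most 3 a list and exposure, those of largest size. Protein identity of member pairs was not computed.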

Additional observations from a re-analysis of the deposited data

Results flagged for a closer look

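In nitenpyram larvae GstE10 read -0.73 on array 3, far from the other 3 arrays, which lay between 0.24 and 0.42. It was the 1 such case in 49 groups of 4 arrays tested. The test pooled both dye orientations, which lay apart for every member except GstE10, so for the others a single far array was hard to detect. The chance rate of about 1 in 20 holds only for values without such a dye shift, so the count is not set against it. The response to phenobarbital differed between the stages, by the contrast in the limma fit, for GstE8 (1.78, adult males minus larvae) and for GstE5 (1.20), both higher in adult males.

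On the array shared by the DDT and phenobarbital adult groups, which was left out of both, GstE3 read -0.53 and GstE8 -0.41. On array 2, of the same dye orientation, they read -0.26 and -0.23 in DDT adult males, and 1.91 and 0.95 in phenobarbital adult males. GstE9 read 0.80 on the shared array, unlike array 2 of DDT (-0.34) or of phenobarbital (-0.25). Which group the shared array belongs to was not tested.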

How the results depend on the processing

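Of 12 calls of members in single exposures, 6 held under all alternatives and left-out arrays: GstE3 in caffeine larvae and at both phenobarbital stages, GstE1 in caffeine larvae and phenobarbital adult males, and GstE8 in phenobarbital adult males. Counts of called members that moved by more than 1.5 times are given next, and the others moved by less. The number in brackets is the count of calls over all 159 genes in the same setting. As deposited they were 0 (0) in DDT adult males, 0 (0) in dicyclanil larvae, 2 (56) in phenobarbital larvae and 1 (10) between phenobarbital stages. They were 0 (14) between caffeine and phenobarbital larvae, 3 (74) between insecticides and caffeine with phenobarbital, and 1 (47) between phenobarbital and other compounds. Centred on all spots they were 2 (3) with dicyclanil, 1 (54) in phenobarbital larvae, 4 (34) between stages and 4 (37) between DDT and phenobarbital. Centred on ribosomal protein and Gapdh genes they were 0 (9) with DDT, 2 (3) with dicyclanil and 2 (70) in phenobarbital larvae. They were 4 (31) between DDT and phenobarbital, 2 (76) for the insecticides and 1 (43) for phenobarbital against other compounds. Scaled to one spread they were 0 (1) with DDT, 2 (13) with dicyclanil, 1 (9) with lufenuron, GstE5 at 0.72, and 1 (46) in phenobarbital larvae. They were 4 (22) between stages, 1 (17) between caffeine and phenobarbital and 4 (26) between DDT and phenobarbital. For the insecticides the count was 0 (20) and for phenobarbital against other compounds 1 (17). With the median of spots they were 2 (11) with DDT, 2 (3) with dicyclanil, 5 (35) between stages and 2 (19) between DDT and phenobarbital. With at least 3 spots they were 2 (11) with DDT and 4 (30) between stages. Without a dye term they were 0 (0) with DDT, 0 (0) with dicyclanil and 2 (52) in phenobarbital larvae. They were then 0 (23) between caffeine and phenobarbital and 0 (8) between DDT and phenobarbital. With a dye term per exposure they were 2 (20) with DDT, 2 (4) with dicyclanil and 4 (52) between stages. They were then 5 (59) between caffeine and phenobarbital and 2 (45) between DDT and phenobarbital. With both identical arrays kept the count between DDT and phenobarbital was 0 (9). The cause of these changes was not tested. Leaving out single arrays gave 0 to 1 with DDT, 0 to 2 with dicyclanil, 3 to 5 in phenobarbital larvae and 3 to 4 in phenobarbital adult males. The default counts were 1 (10), 1 (2), 4 (69) and 4 (29) in turn. With DDT the count was 0 (3) without array 1 or 3. With dicyclanil it was 2 (4) without array 1, and 0 (0) without array 2 or 4. Leaving out pool pairs moved the counts for the insecticides, for phenobarbital against other compounds and for adults against larvae. The fits behind these changes left a lone pool pair on 1 side, so their counts are not given.

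Of 105 results of single members, 42 had a turned sign under 1 or more of the 4 other scalings, of which 2 were called in the default processing. Where either value was called, signs turned in 5 cases: GstE8 and GstE9 in phenobarbital larvae as deposited (0.08 and 0.18) and on ribosomal protein and Gapdh genes (0.02 and 0.11), and GstE3 between phenobarbital stages when scaled (1.45). Arrays of the same number did not deviate together (mean r = -0.07 after the dye term, and 2 of 34 arrays were most like one of their own number), so the number does not pair arrays. With it as a replicate block 0 members were called with DDT, when 4 of all genes were called. GstE1 then stood at 0.76 (adjusted p = 0.0536), and GstE8 between caffeine and phenobarbital larvae had an adjusted p of 0.0618. The block changed no other call of a member. Keeping the identical array under DDT alone, an alternative chosen after seeing the data, changed no call of a member. Signal over background was not used here, and among the members the spots of GstE4, GstE9 and GstE10 spread the most.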
